A study of Mus musculus with 12 samples.

Results

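The matrix proteases and their inhibitors are described here in the dorsal root ganglia (DRG) of a mouse model of schwannoma. The members were all genes of the deposited count table whose symbol is Mmp, Timp, Adamts or Adamtsl followed by a number, with an optional a or b. The rule used names only and found 51 of 49315 genes. They comprised 23 matrix metalloproteinases (MMPs), 4 tissue inhibitors of metalloproteinases (TIMPs), 19 ADAMTS proteases (a disintegrin and metalloproteinase with thrombospondin motifs) and 5 ADAMTS-like genes. Of the 51 members, 44 had enough reads for the genotype test and 7 did not.

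RNA from about 8 DRG per mouse was sequenced in bulk, with 1 library per mouse, at 10 months of age. The 6 Nf2 mice carried Postn-Cre and Nf2 flox/flox. The 6 DKO (double knockout) mice carried Postn-Cre and Nf2 flox/flox together with Fak1 flox/flox, in which the focal adhesion kinase gene, annotated as Ptk2, is deleted. Each genotype had 3 mice labelled male and 3 labelled female. Both genotypes shared Postn-Cre and the loss of Nf2, so the comparison addressed what the added loss of Fak did, and no wild-type or Cre-negative DRG were compared here. The Periostin promoter drives Cre in Schwann cells and their precursors. Which other cells of the DRG kept both genes was not measured here.

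MMPs are zinc proteases that cut collagens, proteoglycans and cell surface proteins. They are made as inactive precursors, many are secreted, and the membrane-type members are anchored at the cell surface. ADAMTS proteases are secreted, and each group has its own matrix substrates, such as the lectican proteoglycans or the propeptides of collagen. ADAMTS-like proteins share the ancillary domains of ADAMTS but lack the protease, and TIMPs bind the active site of the proteases and block it. In peripheral nerve these proteins take part in remodelling the basal lamina and the endoneurial matrix after injury.

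Total counts per library lay between 21129191 and 41250329. Total Ptk2 reads did not separate the genotypes, at 65.8 to 75.5 CPM (counts per 1000000 counts of the library) in the Nf2 group and 46.5 to 76.0 CPM in the DKO group, and the Nf2 gene lay at 109 to 143 and 99.2 to 132 CPM. Mouse 702, labelled male in the Nf2 group, had 496 CPM of Xist and 0.525 CPM of the Y-linked gene Ddx3y, against its label. Mouse 887 (DKO) had the highest share of mitochondrial counts, 5.60%, and mouse 649 (Nf2) the next, 4.45%. The other mice had 1.99% to 3.15%. The Schwann cell gene Sox10 had 308 to 353 CPM in the Nf2 group and 230.3 to 369 CPM in the DKO group, and sensory neuron markers (6 genes) summed to 4399 to 7173 CPM and 4838 to 5894 CPM, so defining cells of the labelled tissue were present in every library. Nothing in the labels says how the mice were bred or whether littermates were used. Samples of each genotype were separate mice.

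The levels of the members spanned a wide range, and an inhibitor stood at the top. On a scale comparable between genes, RPKM (CPM per kilobase of exon), Timp2 had the highest median over the 12 mice at 249.8 RPKM. Timp3, the inhibitor that binds to the matrix itself, followed at 54.8 RPKM, then the membrane-type protease Mmp15 at 32.3 RPKM and the aggrecanase Adamts5 at 30.9 RPKM. The order of these neighbours differed by genotype. Adamts5 stood above Mmp15 in every Nf2 mouse, with medians of 41.2 and 32.4 RPKM, though mouse 884 had nearly equal levels (32.6 and 32.1 RPKM). In every DKO mouse Adamts5 stood below Mmp15, with medians of 25.5 and 31.8 RPKM. The gelatinase Mmp2 had a median of 21.3 RPKM, its membrane-bound activator Mmp14 13.8 RPKM, Adamtsl5 12.4 RPKM and Adamts20 10.5 RPKM. In all, 26 members had a median of at least 1 RPKM.

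**Figure D1:**
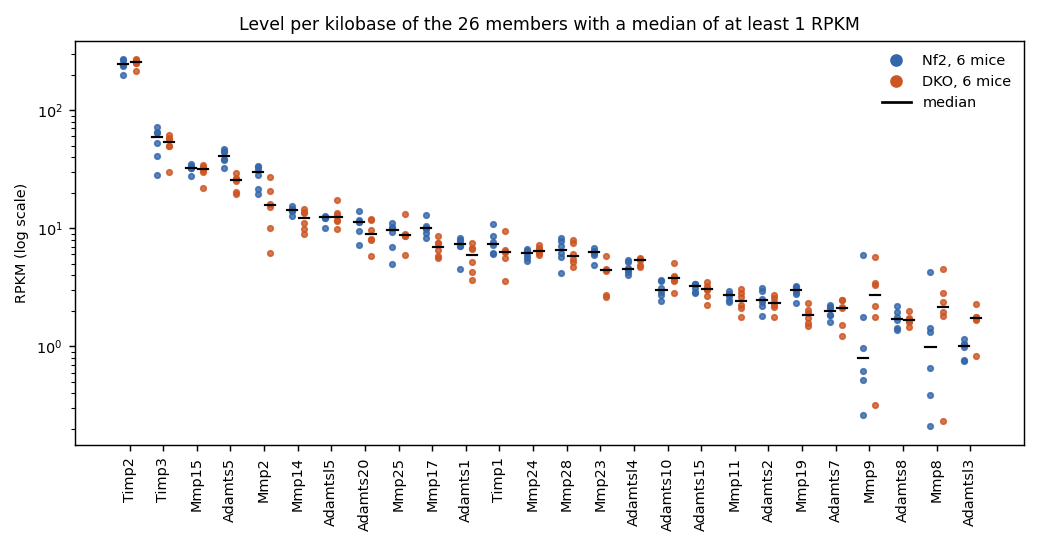
Level of the 26 members with a median of at least 1 RPKM over the 12 mice (vertical axis, log scale), ordered from highest to lowest, with 1 point per mouse, Nf2 in blue, DKO in orange and the median of each genotype as a black line. Timp2 lies near 249.8 RPKM in both genotypes, the Adamts5 points of the genotypes do not overlap, and the points of Mmp8 and Mmp9 spread more widely than those of the others.

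At the other end, Mmp1a, Mmp1b and Mmp7 had no read in any mouse, which allows each of them up to 0.0727 to 0.142 CPM in a library (3 counts of its total, counting error only). Mmp20, the enamel protease, had 1 read in all 12 libraries together, Mmp21 had 28, Mmp27 had 41 and Adamts13, which cuts von Willebrand factor, had 73. These are the 7 members that were not tested. Of these, 5 are neighbours: on GRCm38 chromosome 9, 10 MMP genes lie between positions 7272514 and 7699585, in the order Mmp13, Mmp12, Mmp1b, Mmp3, Mmp1a, Mmp10, Mmp8, Mmp27, Mmp20 and Mmp7. Only Mmp8 of this cluster had a median above 1 RPKM, at 1.61 RPKM.

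The genotype test called 3 members, Adamts5, Mmp19 and Mmp17, and all 3 were lower in DKO mice. These were 6.82% of the 44 tested members, and the same test (edgeR quasi-likelihood, Benjamini-Hochberg adjustment over all genes, threshold 0.05) called 0.94% of all 18295 genes tested, 0.568% lower and 0.372% higher in DKO. At an unadjusted p under 0.05 there were 13 members, 9 lower and 4 higher, beside 14.9% of all genes (7.96% lower and 6.91% higher). DESeq2 called 6 members, beside 4.06% of all genes, and limma voom with sample quality weights called 5, beside 2.85%. The log2 fold change of DKO against Nf2 was below 0 in 25 of the 44 members, or 56.8%, beside 49% of all genes, and its median was -0.07 beside 0.005 over all genes. The sign and the median of the whole family were thus near those of all genes, while the shares of members called and with an unadjusted p under 0.05 were above them, and these differences in share were not tested. In bulk tissue, fewer cells of a type and less RNA per cell cannot be told apart for any of them.

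**Figure D2:**
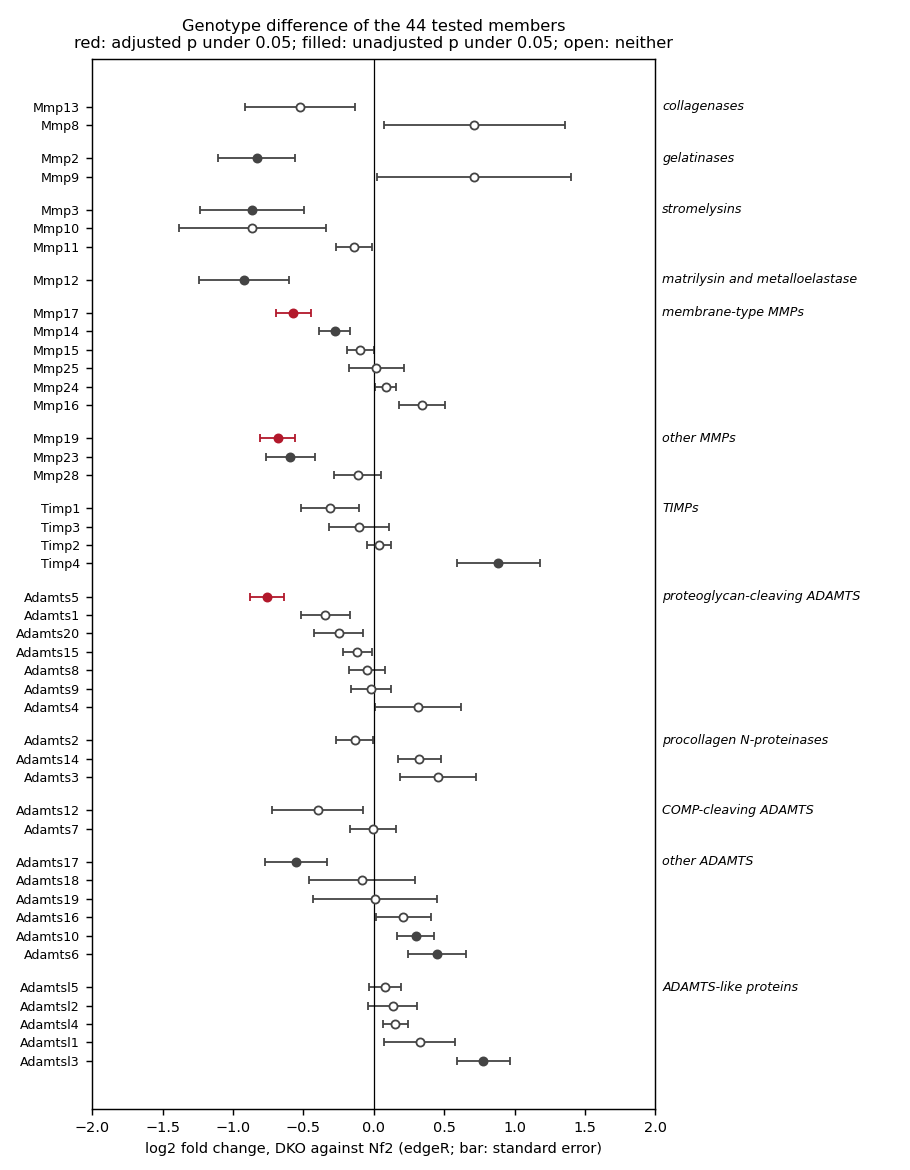
Log2 fold change of DKO against Nf2 (horizontal axis, edgeR estimate with standard error) for the 44 tested members, grouped by role. The 3 called members, Adamts5, Mmp19 and Mmp17, are red and lie left of 0, filled grey points have an unadjusted p under 0.05 and open points do not.

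Adamts5 carried the clearest difference. It encodes the main aggrecanase of cartilage, which cuts the core proteins of aggrecan, versican and related proteoglycans, and lies on GRCm38 chromosome 16 from 85856173 to 85901828 on the minus strand (ENSMUSG00000022894). In Nf2 mice Adamts5 had 486 (mouse 649), 476 (702), 352 (884), 502 (918), 414 (1048) and 406 CPM (1049). In DKO mice it had 218 (mouse 885), 209 (886), 314 (887), 281 (914), 270 (915) and 288 CPM (917). Every DKO mouse thus lay below every Nf2 mouse. Non-overlapping genotypes were found for 1 member, Adamts5, and for 1.95% of all genes (1.04% lower in DKO).

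The means were 439 ± 58.0 CPM in the Nf2 group and 263.5 ± 41.3 CPM in the DKO group (SD, n = 6 each). The edgeR fit gave a log2 fold change of -0.76 ± 0.12 (standard error) at an adjusted p of 0.00924, which is a fitted level 40.8% lower in DKO mice. The call held in each of the 12 fits that left out 1 mouse, with log2 fold changes of -0.83 to -0.70. Without mouse 702 the log2 fold change was -0.73, with an adjusted p of 0.0263 by edgeR. With 3 mice per genotype the same direction was found among labelled females, at -0.83 with an adjusted p of 0.192, and among labelled males, at -0.69 with an adjusted p of 0.267, neither past the threshold.

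The catalytic centre, where both protease families bind zinc, is shown for the called members, because the remaining ADAMTS genes of the same function differ from Adamts5 at this place. The catalytic zinc ion is held by 3 histidines, and the stretch of 11 codons from the first to the last of them was read from GENCODE M21 transcripts on GRCm38, 5′ to 3′, with the histidine codons in capitals. Adamts1, the neighbour of Adamts5 on chromosome 16, is shown for comparison.

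Adamts5: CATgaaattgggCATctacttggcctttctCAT
Adamts1: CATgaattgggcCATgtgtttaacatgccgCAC
Mmp17: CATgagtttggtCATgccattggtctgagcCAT
Mmp19: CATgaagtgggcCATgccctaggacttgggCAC

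These are codons 410 to 420 of Adamts5, 402 to 412 of Adamts1, 247 to 257 of Mmp17 and 213 to 223 of Mmp19. The stretch has its histidines and a glutamate after the first. It was found in the longest coding transcript of 19 of 19 ADAMTS and 22 of 23 MMP genes. The exception was Mmp1a, which GENCODE M21 annotates as a polymorphic pseudogene. None of the 4 TIMP and 5 ADAMTS-like genes had the stretch. The classical form also has a glycine between the second and the third histidine. All 22 MMP genes have it, as do 13 of the 19 ADAMTS genes. Of the 7 proteoglycan-cleaving ADAMTS genes, Adamts5 has the glycine codon and the other 6, Adamts1, Adamts4, Adamts8, Adamts9, Adamts15 and Adamts20, do not.

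The other proteoglycan-cleaving ADAMTS genes did not pass the test. Of the 7 genes of this role, 1 was called, 6 had a log2 fold change below 0, and their median was -0.12. Adamts1, which lies 53.1 kb from Adamts5, had 24.1 to 43.9 CPM in Nf2 mice (median 39.2) and 19.5 to 39.5 CPM in DKO mice (median 31.5). Its log2 fold change was -0.34 ± 0.17 with an adjusted p of 0.381 by edgeR, and the genotypes overlapped. Adamts20, known for the belted coat mutation and melanoblast survival, had 64.9 to 126 CPM in the Nf2 group and 52.8 to 108 CPM in the DKO group, with a log2 fold change of -0.25 ± 0.17 and an adjusted p of 0.553 by edgeR. Adamts15, Adamts8 and Adamts9 had log2 fold changes of -0.12, -0.05 and -0.02, and Adamts4, the second classical aggrecanase, had 0.31 ± 0.31 at a median of 2.20 CPM in Nf2 and 3.23 CPM in DKO mice.

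Adamts5 took more than any other ADAMTS gene of the reads of this group. It made up 54.4% to 68.0% of the summed CPM of the 19 ADAMTS genes in the Nf2 group and 44.8% to 58.0% in the DKO group. The sum itself was 647 to 812 CPM in the Nf2 group and 446 to 562 CPM in the DKO group, without overlap. With Adamts5 taken out, the sum of the other ADAMTS genes was 228 to 310.5 CPM in Nf2 mice (median 279.7) and 228 to 292 CPM in DKO mice (median 257), and the genotypes overlapped over nearly the whole range.

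**Figure D3:**
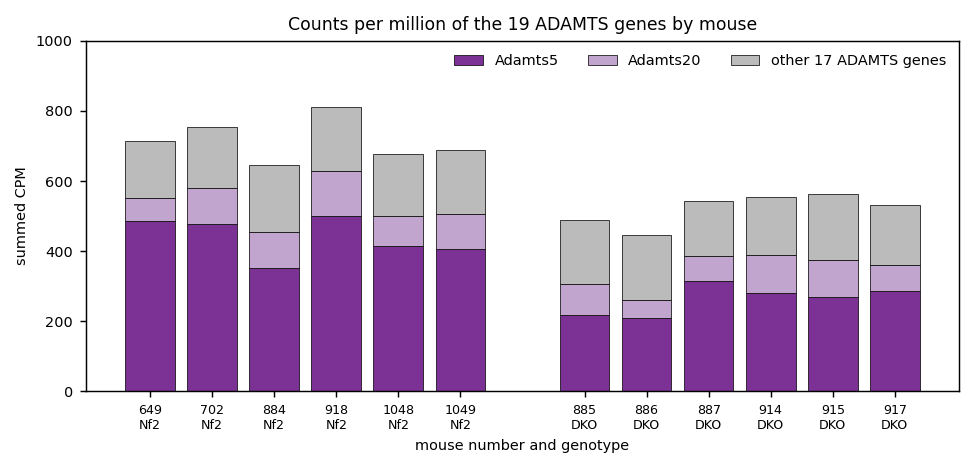
Summed CPM of the 19 ADAMTS genes in each of the 12 mice (vertical axis), as stacked bars of Adamts5, Adamts20 and the other 17 genes. The whole bars reach 647 to 812 CPM in the Nf2 group and 446 to 562 CPM in the DKO group, and the Adamts5 part is shorter in all 6 DKO mice, while the sum of the other parts overlaps between the genotypes.

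Mmp19 was the second call. It encodes a secreted MMP that cuts basement membrane proteins, and lies on GRCm38 chromosome 10 from 128790910 to 128800824 on the plus strand (ENSMUSG00000025355). In Nf2 mice Mmp19 had 11.1 (mouse 649), 10.2 (702), 11.5 (884), 11.2 (918), 8.21 (1048) and 9.72 CPM (1049). In DKO mice it had 7.17 (mouse 885), 5.24 (886), 5.54 (887), 6.18 (914), 8.30 (915) and 6.78 CPM (917). Only the lowest Nf2 mouse, 1048, and the highest DKO mouse, 915, crossed.

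The log2 fold change of Mmp19 was -0.68 ± 0.12 with an adjusted p of 0.0210 by edgeR, from 10.3 ± 1.24 to 6.53 ± 1.13 CPM (SD, n = 6 each). The call was lost without mouse 884, 918 or 914, at adjusted p of 0.0517, 0.0635 and 0.0513 by edgeR, and without mice 702 and 887 together, at 0.0669. Mmp19 shares 22.3% of its exon bases with Tmem198b on the opposite strand, and the library kit and counting were not stated to use strand, so reads from these bases cannot be assigned to either gene with certainty. Tmem198b itself had 14.8 to 21.4 CPM in the Nf2 group and 13.1 to 22.2 CPM in the DKO group, with a log2 fold change of -0.11 ± 0.13 and an adjusted p of 0.757 by edgeR.

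Mmp17, the third call, encodes a membrane-type protease held by a glycosylphosphatidylinositol anchor, and lies on GRCm38 chromosome 5 from 129584169 to 129611099 on the plus strand (ENSMUSG00000029436). In Nf2 mice Mmp17 had 65.3 (mouse 649), 85.1 (702), 67.1 (884), 69.5 (918), 54.5 (1048) and 60.8 CPM (1049). In DKO mice it had 49.2 (mouse 885), 38.3 (886), 50.03 (887), 43.3 (914), 56.5 (915) and 37.4 CPM (917). Again mouse 1048 was the lowest of the Nf2 group and mouse 915 the highest of the DKO group, and only these crossed.

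The log2 fold change of Mmp17 was -0.57 ± 0.12 with an adjusted p of 0.0452 by edgeR, from 67.1 ± 10.3 to 45.8 ± 7.47 CPM (SD, n = 6 each). This call lay at the edge of the threshold. It held in 3 of the 12 fits that left out 1 mouse, those without mouse 1048, 887 or 915, and was lost in the other 9 at adjusted p of up to 0.108 by edgeR. With labelled sex as a covariate the adjusted p was 0.0582 by edgeR.

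**Figure D4:**
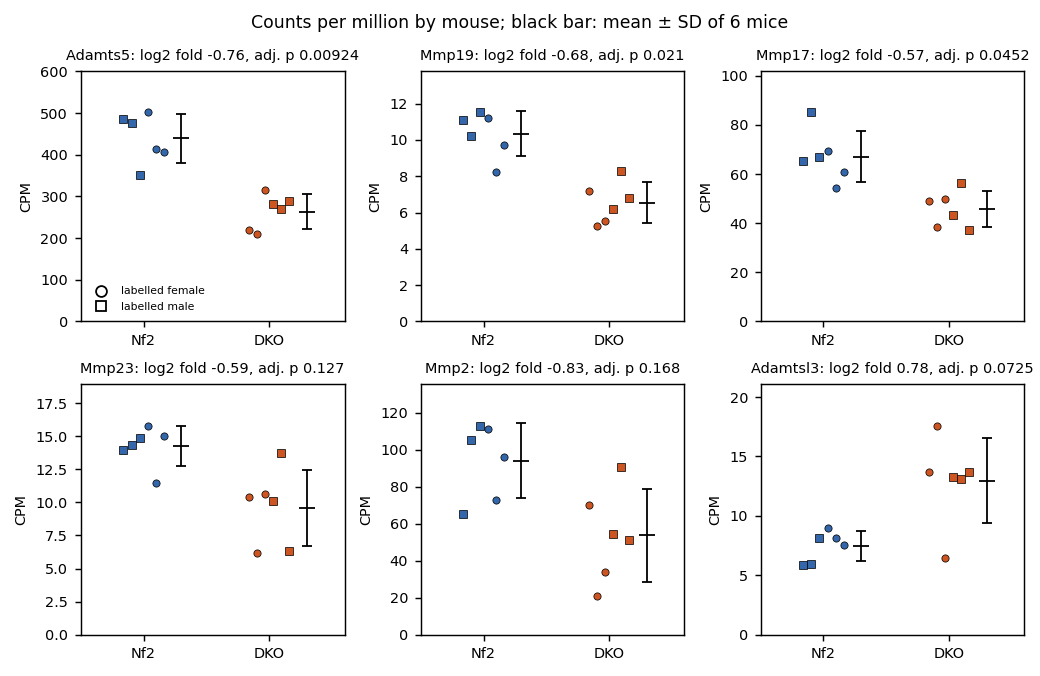
CPM of 6 members in each mouse, with Nf2 in blue and DKO in orange, circles for mice labelled female, squares for mice labelled male, and the mean ± SD of 6 mice as a black bar. Adamts5, Mmp19 and Mmp17 passed the test. Mmp23, Mmp2 and Adamtsl3 did not. Only the Adamts5 values of the genotypes do not overlap, and for every other gene shown, Mmp19 and Mmp17 included, at least 1 DKO mouse lies within the Nf2 range.

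The other membrane-type MMPs were not called by edgeR, DESeq2 or limma voom. Of the 6 genes of this role, 3 had a log2 fold change below 0 and 3 above, with a median of -0.04. Mmp14, which activates the Mmp2 precursor at the cell surface, had 76.0 to 92.2 CPM in Nf2 mice (median 84.7) and 52.9 to 86.02 CPM in DKO mice (median 73.3). Its log2 fold change was -0.28 ± 0.11 with an adjusted p of 0.251 by edgeR, and 3 of the 6 DKO mice lay below every Nf2 mouse. Mmp15 (-0.10), Mmp25 (0.02), Mmp24 (0.08) and Mmp16 (0.34) had adjusted p of 0.345 to 0.977 by edgeR.

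The gelatinases, which cut denatured collagen and type IV collagen, had estimates of opposite sign, and edgeR called neither. Mmp2, a product of fibroblasts and other stromal cells, had 65.5 (mouse 649), 105 (702), 113 (884), 111 (918), 73.0 (1048) and 96.02 CPM (1049) in Nf2 mice. In DKO mice Mmp2 had 70.3 (mouse 885), 20.9 (886), 34.0 (887), 54.4 (914), 90.9 (915) and 51.4 CPM (917). In all, 4 DKO mice lay below every Nf2 mouse, and mice 885 and 915 lay within the Nf2 range. The log2 fold change was -0.83 ± 0.28 with an adjusted p of 0.168 by edgeR, so a larger estimate than that of Adamts5 did not pass beside the wider spread, and DESeq2 called it at 0.0471. Without mouse 886, which had the lowest value, it was -0.67 with an adjusted p of 0.2. Fibroblast markers (6 genes, none called) had 4 log2 fold changes above 0 and 2 below, with a median of 0.05. They summed to 1341 to 1642 CPM in the Nf2 group and 1207 to 1791 CPM in the DKO group. The part of fibroblasts in the Mmp2 level was not tested.

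Mmp9, the gelatinase stored in neutrophil granules, had 0.937 (mouse 649), 1.84 (702), 3.42 (884), 6.22 (918), 2.20 (1048) and 21.1 CPM (1049) in Nf2 mice. In DKO mice Mmp9 had 11.7 (mouse 885), 6.26 (886), 1.14 (887), 7.71 (914), 12.1 (915) and 20.3 CPM (917). The spread among mice of one genotype was thus wider than the distance between the genotypes. The log2 fold change was 0.71 ± 0.69 with an adjusted p of 0.688 by edgeR, and 1.71 with an adjusted p of 0.219 without mouse 1049.

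Mmp8, the neutrophil collagenase, varied over the same mice. It had 0.511 to 10.3 CPM in Nf2 mice (median 2.39) and 0.568 to 10.9 CPM in DKO mice (median 5.22), with a log2 fold change of 0.71 ± 0.64 and an adjusted p of 0.664 by edgeR, and 1.47 with an adjusted p of 0.285 without mouse 1049. The summed CPM of 7 neutrophil and bone marrow markers (S100a8, S100a9, Ngp, Camp, Ltf, Mpo and Elane) was 10.5 (mouse 649), 53.7 (702), 102 (884), 137 (918), 62.0 (1048) and 526 (1049) in Nf2 mice and 291 (885), 139 (886), 15.5 (887), 182 (914), 240 (915) and 437 (917) in DKO mice. The 3 mice with the lowest sum, 649, 887 and 702, were also the 3 lowest for Mmp8 and for Mmp9, and mice 1049 and 917 were the 2 highest for all 3 measures. Over all 12 mice the marker sums of the genotypes overlapped, at 10.5 to 526 CPM in the Nf2 group and 15.5 to 437 CPM in the DKO group. Apart from mice 887 and 1049, set aside after the values were seen, every DKO mouse had a higher marker sum than every Nf2 mouse. All 7 markers had a log2 fold change above 0, with a median of 0.53, and 0 of them had an unadjusted p under 0.05 by edgeR. Whether blood or marrow cells in the dissected tissue account for these levels was not tested.

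**Figure D5:**
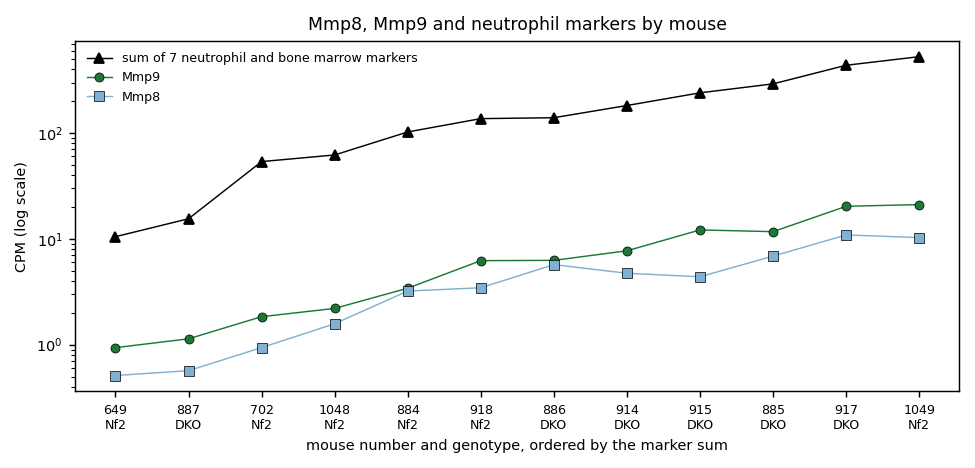
CPM of Mmp9 (circles), Mmp8 (squares) and the sum of 7 neutrophil and bone marrow markers (triangles) in the 12 mice (vertical axis, log scale), ordered by the marker sum from mouse 649 at 10.5 to mouse 1049 at 526. Mmp9 runs from 0.937 to 21.1 CPM over the same order, and mice of both genotypes stand at both ends. The genotypes overlap in the marker sum over the 12 mice. Apart from mice 887 and 1049, set aside after the values were seen, every DKO mouse stands above every Nf2 mouse in this sum.

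Among the stromelysins and the metalloelastase, the estimates of all 4 tested genes were below 0, and none was called by edgeR. Mmp12, the macrophage elastase, had 1.05 to 2.32 CPM in Nf2 mice (median 1.41) and 0.339 to 1.42 CPM in DKO mice (median 0.814). Its log2 fold change was -0.92 ± 0.32 with an adjusted p of 0.184 by edgeR, 5 of the 6 DKO mice lay below every Nf2 mouse, and limma voom called it at 0.0457. Mmp3, a stromelysin that also activates other MMPs, had 0.413 to 0.991 CPM in Nf2 mice (median 0.733) and 0.152 to 0.852 CPM in DKO mice (median 0.386), a log2 fold change of -0.86 ± 0.37 and an adjusted p of 0.288 by edgeR. Mmp3 had 182 reads and Mmp12 had 371 reads over the 12 libraries together, so differences of this size rest on few counts per mouse. Mmp10 and Mmp11 had log2 fold changes of -0.86 ± 0.52 and -0.14 ± 0.13, and Mmp13, a collagenase of cartilage and bone, had -0.52 ± 0.39, with adjusted p of 0.480, 0.662 and 0.588 by edgeR.

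Mmp23, an MMP anchored by its N terminus, had 11.5 to 15.8 CPM in Nf2 mice (median 14.6) and 6.17 to 13.7 CPM in DKO mice (median 10.3). Its log2 fold change was -0.59 ± 0.17 with an adjusted p of 0.127 by edgeR. Of the 6 DKO mice, 5 lay below every Nf2 mouse, mouse 915 being the exception, and DESeq2 called it at 0.0307. Mmp28 (epilysin, known in nerve for its expression by Schwann cells and neurons during regeneration) had a log2 fold change of -0.11 ± 0.17 with an adjusted p of 0.804 by edgeR.

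Of 8 macrophage markers, 1 was lower in DKO mice by the test, beside 0.568% of all genes. At an unadjusted p under 0.05 by edgeR, 5 of the 8 were lower, beside 7.96% of all genes. All 8 markers had a log2 fold change below 0, beside 49% of all genes. They lay from -0.71 to -0.0073, with a median of -0.39. The call, the complement gene C1qb, was at -0.71 with an adjusted p of 0.0138 by edgeR. The 8 markers summed to 189 to 285 CPM in the Nf2 group and 154 to 207 CPM in the DKO group, and none of them was at 0. The part of macrophages in the lower Adamts5, Mmp19, Mmp17 or Mmp12 was not tested. Skeletal muscle markers (6 genes, none called) summed to 9.83 to 664 CPM in the Nf2 group and 14.8 to 204 CPM in the DKO group. Their median log2 fold change was -2.14, and 5 of the 6 were lower at an unadjusted p under 0.05 by edgeR. The part of muscle in these results was not tested. No endothelial, mural, bone and cartilage, B and plasma cell or erythroid marker was called by edgeR. Their lists had median log2 fold changes of 0.21, 0.21, -0.18, 0.81 and 0.76, in the same order.

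The TIMPs showed no call by edgeR, DESeq2 or limma voom, 1 of the 4 had an unadjusted p under 0.05 by edgeR, and 2 had a log2 fold change below 0. Timp2, which inhibits MMPs and also takes part in the activation of Mmp2 by Mmp14, had 765 to 1048 CPM in Nf2 mice (median 949.7) and 839 to 1053 CPM in DKO mice (median 997). Its log2 fold change was 0.04 ± 0.08 with an adjusted p of 0.877 by edgeR. Timp3 had 231 to 580.5 CPM in Nf2 mice (median 479) and 244 to 500.1 CPM in DKO mice (median 434), a log2 fold change of -0.10 ± 0.21 and an adjusted p of 0.865 by edgeR. The lowest Timp3 values were those of mice 649 and 887, which also had the lowest Timp2 values and the highest shares of mitochondrial counts. Timp3 shares 21.3% of its exon bases with Syn3 on the opposite strand, and Syn3 had at most 6.39 CPM.

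Timp1, the inducible inhibitor, had 5.34 to 9.67 CPM in Nf2 mice (median 6.59) and 3.15 to 8.49 CPM in DKO mice (median 5.58), with a log2 fold change of -0.31 ± 0.21 and an adjusted p of 0.519 by edgeR. Timp4 had 0.938 to 2.95 CPM in Nf2 mice (median 1.56) and 2.01 to 5.28 CPM in DKO mice (median 2.98), a log2 fold change of 0.89 ± 0.30 and an adjusted p of 0.173 by edgeR. Of the 6 DKO mice, 3 lay above every Nf2 mouse for Timp4, and without mouse 886, the highest, the log2 fold change was 0.70. Timp1 and Timp4 both lie in synapsin genes on the opposite strand, and the strand setting is not known. Timp1 lies in an intron of Syn1, which had 207 to 253 CPM over the 12 mice, and Timp4 shares 1.53% of its exon bases with Syn2, which had 106 to 158 CPM. The part of reads from these genes in the Timp1 and Timp4 levels was not tested. Timp2 and Timp3 together made up 43.5% to 52.3% of the CPM of all 51 members in the Nf2 group and 49.6% to 60.8% in the DKO group, with overlap.

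The ADAMTS-like genes had 5 of 5 log2 fold changes above 0, with a median of 0.15, and none was called. By edgeR 1 of the 5, Adamtsl3, had an unadjusted p under 0.05, and DESeq2 and limma voom each called it. Adamtsl3 encodes a secreted glycoprotein of the extracellular matrix, also named punctin-2. It had 5.88 (mouse 649), 5.93 (702), 8.17 (884), 8.99 (918), 8.10 (1048) and 7.59 CPM (1049) in Nf2 mice. In DKO mice it had 13.7 (mouse 885), 17.6 (886), 6.48 (887), 13.3 (914), 13.1 (915) and 13.7 CPM (917). Here 5 DKO mice lay above every Nf2 mouse, and mouse 887 lay among the Nf2 values.

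The log2 fold change of Adamtsl3 was 0.78 ± 0.19 with an adjusted p of 0.0725 by edgeR. Without mouse 887 it was 0.90 ± 0.13 with an adjusted p of 0.00698 by edgeR, so this 1 library decided the edgeR call. DESeq2 and limma voom called the gene with mouse 887 included. Meningeal markers (5 genes, none called, 5 with an unadjusted p under 0.05) had a median log2 fold change of 1.04 and summed to 12.3 to 45.5 CPM in the Nf2 group and to 29.5 to 144 CPM in the DKO group, lowest among DKO mice in mouse 887 and highest in mouse 886, as for Adamtsl3. Their part in Adamtsl3 and Timp4 was not tested. Adamtsl1, Adamtsl2, Adamtsl4 and Adamtsl5 had log2 fold changes of 0.33, 0.13, 0.15 and 0.08, with adjusted p of 0.451 to 0.802 by edgeR.

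The ADAMTS genes with other roles were not called. The procollagen N-proteinases, which remove the amino-terminal propeptide of fibrillar procollagens, had log2 fold changes of -0.14 (Adamts2), 0.32 (Adamts14) and 0.45 (Adamts3). Adamts7 and Adamts12, which cut cartilage oligomeric matrix protein, had -0.003 and -0.40. Adamts10, which binds fibrillin microfibrils, had 20.1 to 30.1 CPM in Nf2 mice (median 24.9) and 23.3 to 41.6 CPM in DKO mice (median 31.1), with a log2 fold change of 0.30 ± 0.13 and an adjusted p of 0.303 by edgeR. Adamts17, also tied to fibrillin, had 4.22 to 8.99 CPM in Nf2 mice (median 6.29) and 2.70 to 5.74 CPM in DKO mice (median 4.34), with -0.56 ± 0.22 and an adjusted p of 0.251. These members of one function thus had estimates of opposite sign, and in both the genotypes overlapped. Adamts6, Adamts16, Adamts18 and Adamts19 had log2 fold changes of 0.45, 0.21, -0.08 and 0.006 with adjusted p of 0.331 to 0.996 by edgeR.

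The other genes of the pathway were counted from 8 lists of 74 genes, of which 71 were tested and 1 was called, beside 0.94% of all genes. The call was Col11a1, a minor fibrillar collagen, at -0.76 with an adjusted p of 0.0373 by edgeR, from 288 to 173 CPM on average. It held in 4 of the 12 fits that left out 1 mouse, those without mouse 1048, 887, 914 or 915, and was lost in the other 8. All 7 fibrillar collagen genes had a log2 fold change below 0, beside 49% of all genes, and their median was -0.54. Of the plasminogen system, which activates several MMPs, 5 of 8 genes were tested and none was called, with the urokinase gene Plau at -0.34 and an adjusted p of 0.141 and the tissue activator Plat at -0.29 and 0.216 by edgeR. All 8 cathepsins and cystatins were below 0 without a call, with Cst3 at -0.56 and Ctss at -0.58 and adjusted p of 0.0952 and 0.138 by edgeR.

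None of 10 ADAM genes was called, with Adam33 at 0.55 and an adjusted p of 0.164 by edgeR. None of 11 activators and other inhibitors was called, with Spock1 at 0.21 and 0.126, and none of 11 basement membrane genes, with Nid2 at -0.56 and 0.222. None of the 8 proteoglycan substrates and link proteins was called in any of the fits, and 5 of the 8 had a log2 fold change above 0, with Hapln1 at 0.19 and an adjusted p of 0.441 by edgeR. None of the 11 microfibril proteins was called, with Thsd4 at 0.66 and an adjusted p of 0.283. In the 7 lists other than the collagens, edgeR called 0 genes. Over all 8 lists, 18 of the 71 tested genes had an unadjusted p under 0.05 by edgeR, 14 of them outside the collagens. These 18 were a larger share than the 14.9% of all genes, and the difference was not tested. DESeq2 called 6 of the 71, namely Cst3, Ctss, Plau, Spock1, Col11a1 and Col5a2, beside 4.06% of all genes. Limma voom called Cst3, Plau and Col11a1 of the 71, beside 2.85% of all genes.

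Labelled sex was tested with mouse 702 counted as male, against its Xist and Ddx3y levels, so the test cannot show that the members do not differ by sex. By edgeR 0 of 44 members were called between mice labelled male and female, 0 had an unadjusted p under 0.05, and the shares among all genes were 0.0164% and 2.91%. The dependence of the genotype difference on labelled sex was called for 0 of 44 members by edgeR, beside 0.0109% of all genes, and 4 had an unadjusted p under 0.05, beside 4.78% of all genes. These 4 were Adamtsl1, Adamts8, Adamts19 and Mmp9, and no other tool was run for these tests. Adamtsl1 had 9.24 to 12.3 CPM in labelled female and 4.30 to 7.20 CPM in labelled male Nf2 mice, the 7.20 CPM being mouse 702. In DKO mice it had 7.78 to 10.05 CPM in labelled females and 10.2 to 15.6 CPM in labelled males. Its interaction, the log2 difference of the genotype effect in males from that in females, was 1.45 ± 0.32 with an adjusted p of 0.762 by edgeR, and 1.70 with an adjusted p of 0.197 without mouse 702.

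The mice did not contribute evenly to the extremes of the family. Mouse 649 had the lowest level of all 12 mice in 13 of the 44 tested members and mouse 886 in 11, while mice 884, 1048, 1049 and 915 had it in none. Among Nf2 mice, 649 was the lowest in 21 members, Timp2, Timp3, Mmp2, Mmp9 and Adamts1 among them, yet its Adamts5 level was the second highest of the group. Mouse 886 had the lowest Adamts5, Mmp19, Mmp2, Mmp14, Mmp15 and Mmp23 of all mice and the highest Timp4, Adamts10 and Adamtsl3. It also had the lowest Ptk2 level, 46.5 CPM, and the lowest sum of fibrillar collagens, 873 CPM beside 1457 to 2141 CPM in the other DKO mice. Without mouse 886, Adamts5 and Mmp19 were still called, with Adamts5 at -0.70 and an adjusted p of 0.0183 by edgeR.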

How the data were processed

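The authors deposited raw counts, whole numbers of reads per Ensembl gene and mouse, without normalization, from poly(A) libraries made with a NEBNext Ultra II RNA kit by a commercial provider. The submitters' processing notes name Trimmomatic 0.36, STAR 2.5.2b, featureCounts of Subread 1.5.2 and GRCm38. The strand setting, the treatment of reads with several matches and the annotation release are not given in the sources used here, and coordinates, exon lengths and coding sequences were taken from GENCODE M21.

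Counts were fitted in R 4.3.3 with edgeR 4.0.16 (filterByExpr by genotype, TMM scaling, quasi-likelihood F test of genotype alone over the 12 mice). Benjamini-Hochberg adjustment ran over the 18295 genes tested, and the threshold was 0.05. Labelled sex was tested with genotype in the model, and its interaction with genotype was tested as a term. CPM are counts divided by the library total in units of 1000000 reads, and RPKM are CPM per 1000 bases of the exon union. No pseudocount was used except in limma-trend, on log2(CPM + 4). DESeq2 1.42.0, limma 3.58.1 and other filters, scalings and subsets of mice served as alternatives. The procedure was tested on simulated data with known changes.

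The members and lists were chosen with earlier results of these data known. Given by mouse or as the lowest, median and highest were members past the genotype test, Timp1 to Timp4, Mmp2, Mmp9, Mmp14 and the 6 further members with the smallest unadjusted p, all others by role. Mmp8 and members beyond this rule were given more fully after their values were seen, and mouse 886 was singled out in the same way. Replicate numbers are mouse numbers. Python 3.11.15, with matplotlib 3.10.9, pandas 2.3.3 and numpy 2.4.6, served for tables and plots.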

Additional observations from a re-analysis of the deposited data

Results flagged for a closer look

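In each genotype, the highest and the lowest of the 6 mice were compared with the nearest other mouse for the 44 tested members by Dixon's gap test. Of the 88 groups examined 7 had a mouse set apart, and chance alone flags about 1 in 20 groups, or 4.4 here. Among Nf2 mice, mouse 1049 had 21.1 CPM of Mmp9, with 6.22 CPM in the next mouse, and 10.3 CPM of Mmp8, with 3.45 CPM in the next. Mouse 649 had 148.9 CPM of Mmp15, with 173 CPM in the nearest mouse, and 24.1 CPM of Adamts1, with 37.3 CPM in the nearest. Mouse 702, the Nf2 mouse whose sex-linked genes go against its label, had 47.5 CPM of Adamtsl5, with 57.6 CPM in the nearest mouse. Among DKO mice, mouse 886 had 117 CPM of Mmp15, with 163 CPM in the nearest, and mouse 917 had 2.72 CPM of Mmp13, with 1.28 CPM in the next. None of these 6 genes was called in any fit.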

How the results depend on the processing

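Other scaling factors, no scaling, both count filters and limma-trend each called 3 members, the same as the fit reported, and labelled sex as a covariate called 2. Leaving out 1 mouse gave 1 to 4 members, with 1 (Adamts5) without mouse 884, 918 or 914. DESeq2 called 6 members (Adamts5, Adamtsl3, Mmp17, Mmp19, Mmp2 and Mmp23, beside 4.06% of all genes) and limma voom 5 (Adamts5, Adamtsl3, Mmp12, Mmp17 and Mmp19, beside 2.85%), and the cause of these larger counts was not tested. With fewer mice, 0 members were called among labelled females (10 with an unadjusted p under 0.05), labelled males (10) or labelled males without mouse 702 (9). The last was a choice made after seeing the data, as was leaving out mice 702 and 887, which called 2 (Adamts5 and Adamtsl3). Over all genes these fits called 57 of 18487, 2 of 18415, 9 of 18901 and 116 of 18374, in the same order. An unadjusted p under 0.05 was found for 1526, 1787, 1595 and 3385 genes. With 2 genes called in all among labelled males, a count of 0 members there says little about the members. Of the 71 tested genes of the other pathway lists, 1 was called. DESeq2 called 6, beside 4.06% of all genes, and limma voom 3, beside 2.85%. Leaving out 1 mouse gave 0 to 1 (Col11a1 in 4 of the 12 fits, and Cst3 in its place without mouse 886). Of these genes 0 were called among labelled females, labelled males, labelled males without mouse 702 and without mice 702 and 887 (6, 14, 12 and 19 with an unadjusted p under 0.05). No called member changed direction, and 21 of the 44 tested members kept their sign in every fit. No member was called for labelled sex or its interaction with genotype in any of the fits.

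No paired analysis was possible because each mouse has 1 genotype and the labels name no litters. The DKO mice have numbers from 885 to 917 and the Nf2 mice from 649 to 1049. Whether these numbers mark cohorts is not stated. Members under about 1 CPM rest on few reads per mouse, and a difference there was not detectable at this depth unless large. The calls of Mmp17 and Mmp19 depend on single mice. That of Adamts5 was lost only in the fits split by labelled sex, with at most 3 mice per genotype. There the number of mice and labelled sex cannot be told apart.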
